A study of Rattus norvegicus with 18 samples.

Results

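The 6 genes described here are *Dlk1* and 5 genes of the Notch pathway: the receptors *Notch1* and *Notch2*, the ligand *Jag1*, and the target genes *Hes1* and *Hes5*. They were taken as every array probe whose symbol in the array annotation is one of these names, which gave 1 probe for each of the 6, out of 13337 gene symbols on the array. RNA came from oligodendrocyte progenitors (OLPs) in primary culture, taken from neonatal Sprague-Dawley rat brain, a strain and origin that all groups share. The 18 arrays (Illumina RatRef-12) form 6 groups of 3: day 0, the progenitors before differentiation, day 1 control and day 2 control, differentiated with the vehicle DMSO, and day 1, day 2 and day 4 PD169316, differentiated with a small molecule that inhibits the kinases p38α and p38β. By the study's methods, OLPs were kept in the mitogens PDGF-AA and bFGF and differentiated once these were removed. Every comparison with day 0 therefore also holds the removal of these mitogens. No day 4 control is among the labels, and the treatment text of the records speaks of 24 or 48 h only. Nothing in the labels tells whether the 3 samples that make up a group were grown as separate cultures. The p-values therefore reflect the spread among these arrays alone, possibly a technical one.

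Notch receptors are activated by ligands on a neighbouring cell. The bound receptor is cut first by an ADAM metalloprotease and then by the γ-secretase complex, and the freed intracellular part joins the DNA-binding factor RBPJ to switch on repressor genes of the HES and HEY families. In the oligodendrocyte lineage, Notch signalling through Jagged is known for holding progenitors back from maturing. DLK1, also called preadipocyte factor 1, is a membrane protein built like a Delta ligand that lacks the receptor-binding DSL domain and is best known for keeping precursor cells such as preadipocytes undifferentiated. It is unrelated to the dual leucine zipper kinase, encoded by *Map3k12*, which shares the abbreviation DLK.

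Values are log2 intensities after background correction and quantile normalization, given as mean ± SD (n = 3 arrays), and are not comparable between probes. A probe was detected on an array where its signal exceeded that of the negative control beads at a detection p under 0.01. The test covered the 10574 probes that some group had detected on each of its 3 arrays, in a single limma model of the 6 group means. A probe was called where the adjusted p (Benjamini-Hochberg over those probes) was under 0.05. *Dlk1*, *Notch1* and *Jag1* were detected on all 18 arrays. *Hes1* was detected on 6 arrays and was tested only because these include all 3 of day 0. *Notch2*, on 4 arrays, and *Hes5*, on 0, did not pass the filter.

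Between 9789 and 10773 probes were detected per array. All 5 OLP markers and all 6 oligodendrocyte markers with a probe were detected on all 3 arrays of at least 1 group, as were all 7 astrocyte, all 10 neuron and 4 of 6 microglia markers, 1 of 3 endothelial markers (*Cldn5*) and 1 of 4 markers of fibroblasts and pericytes (*Col1a2*). By the study's staining, the great majority of cells at day 0 carried an OLP marker, and few were astrocytes or microglia. Detection of a marker on an array does not give the share of a cell type. Fewer cells of a type and less RNA per cell cannot be told apart. Over all probes, 2 libraries of day 2 were clearly closer to the other label than to their own. For control 3 of that day Pearson r was 0.986 to 0.987 within its group, yet up to 0.997 with a treated library. For PD169316 1 it was 0.980 to 0.983 within its group, yet up to 0.994 with a control. PD169316 2 was nearest to control 3 (0.997), by little, with r up to 0.996 within its group. For most results that rest on the day 2 groups, the value without both control 3 and PD169316 1 is therefore given as well.

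*Dlk1* was higher after 1 day of PD169316 than in the day 1 control. The day 1 control arrays were at 8.11, 7.97 and 7.86, and the day 1 PD169316 arrays at 9.71, 9.67 and 9.44. Every treated array lay above every control array, by more than the range within either group. In the deposited intensities, before any correction, the controls were at 360, 307 and 319 and the treated arrays at 993, 980 and 575. The log2 difference was 1.62 (standard error 0.37, 95% interval 0.84 to 2.41, limma adjusted p = 0.00934), a 3.08-fold higher level. In size it exceeded the difference of 99.8% of all probes tested. Across 27 other settings, each library left out in turn among them, the difference was 1.32 to 1.71 with an adjusted p of up to 0.0434, so the call held in all 27. Leaving out a library of a group not compared cannot move the difference, only the estimate of its error. *Dlk1* was the only one of the 4 tested genes called in this comparison, in which 11.1% of all probes were called 6.59% higher and 4.48% lower. The groups did not overlap for 41.5% of probes.

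**Figure D1:**
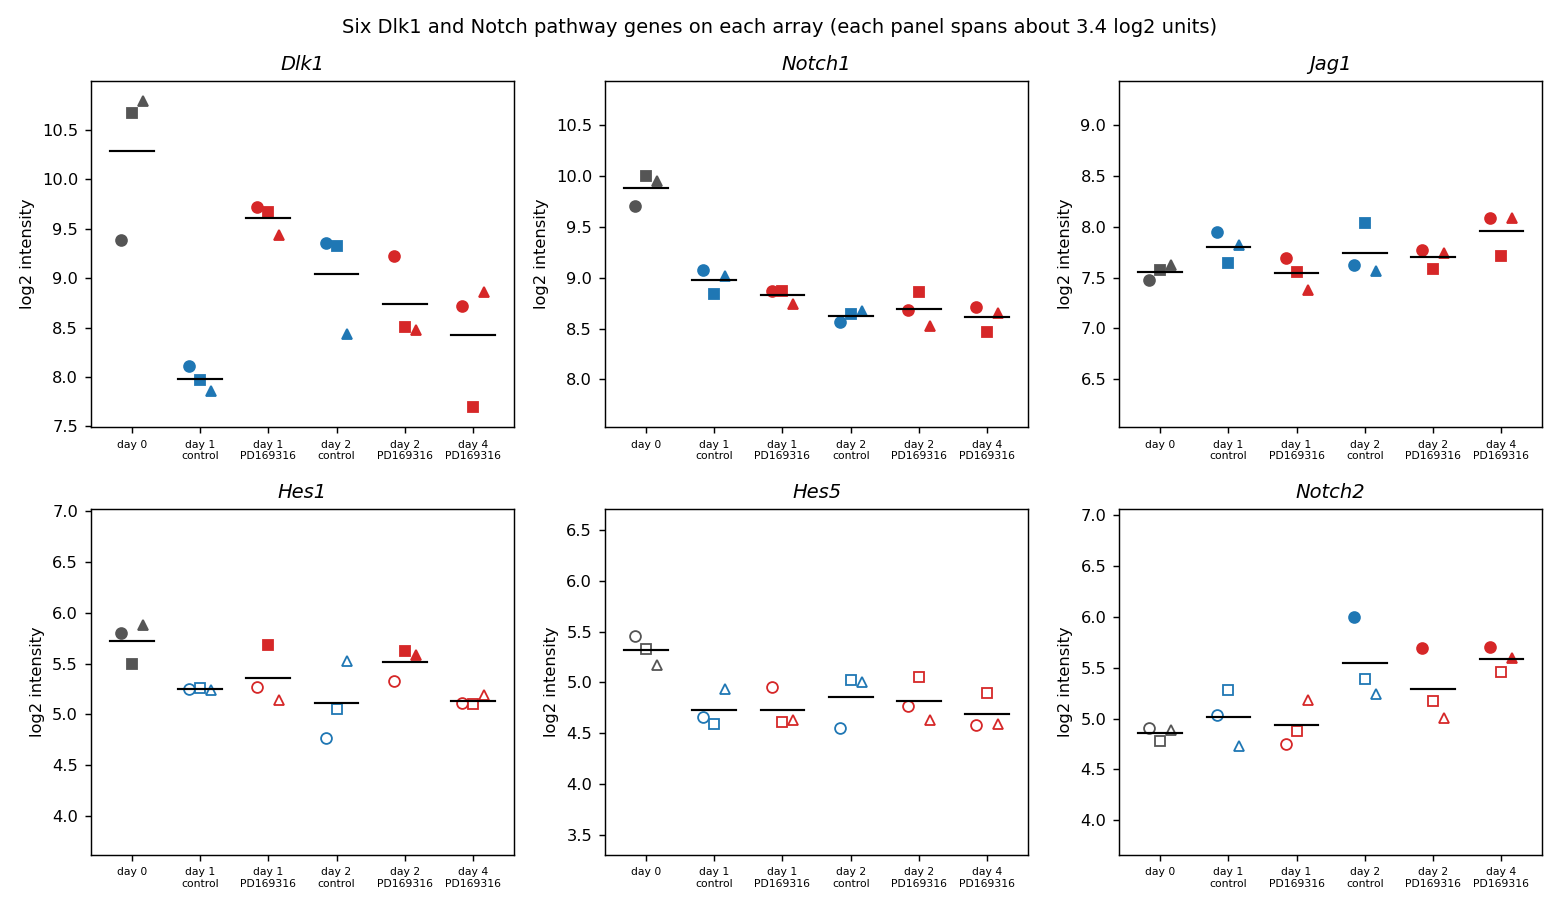
Log2 intensity of each of the 6 genes on each of the 18 arrays, by group (grey, day 0, blue, control, red, PD169316). Bars are group means, circles, squares and triangles are replicates 1, 2 and 3, and open symbols mark arrays on which the probe was not detected. *Dlk1* at day 1 shows the 3 treated arrays (9.44 to 9.71) above the 3 controls (7.86 to 8.11), and *Notch1* falls from day 0 to every later group.

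At day 2 the groups labelled control and PD169316 overlapped for *Dlk1*. The day 2 control arrays were at 9.36, 9.32 and 8.43, and the day 2 PD169316 arrays at 9.23, 8.50 and 8.47. Control 3 thus lay with PD169316 2 and 3, and PD169316 1 lay with control 1 and 2, as these libraries did over all probes. The log2 difference was -0.30 (standard error 0.37, adjusted p = 0.891). Without both libraries it was -0.85 (adjusted p = 0.149), and with array weights, which count arrays far from their group less, it was -0.76 (adjusted p = 0.0241). None of the 4 tested genes was called by limma at day 2, where 1 of them (*Hes1*) had an unadjusted p under 0.05. Of all probes 0.0% were called and 6.34% did not overlap between the groups, while 469 had an unadjusted p under 0.05, and with array weights 3946 were called. The effect on *Dlk1* at day 2 minus that at day 1 was -1.93 (standard error 0.52, 95% interval -3.04 to -0.82, adjusted p = 0.0522). This change of the effect between the days was called in 10 of 27 other settings, with an adjusted p of 0.00637 without both libraries, 0.0221 without day 2 control 3, 0.0328 without day 2 PD169316 1, 0.0173 without day 0 1 and 0.0299 without day 4 PD169316 2. None of the 4 genes was called for it here, against 3.85% of all probes (1.52% higher and 2.33% lower), and *Dlk1* was the only one of them with an unadjusted p under 0.05.

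Over the course of differentiation, *Dlk1* fell from day 0 to day 1 control. Its mean was higher again in day 2 control, a step that was not called. The day 0 arrays were at 9.38, 10.67 and 10.79, all above the day 1 control arrays. The log2 difference of day 1 control from day 0 was -2.30 (standard error 0.37, adjusted p = 0.000396), a 4.92-fold lower level, and was called in all 27 other settings. With PD169316 for 1 day, *Dlk1* differed from day 0 by -0.67 (standard error 0.37, adjusted p = 0.180), and the lowest day 0 array lay below all 3 treated arrays. Both of these comparisons use the same day 0 arrays. Without day 0 1, the difference of day 1 PD169316 from day 0 was -1.12 (adjusted p = 0.0232). From day 1 control to day 2 control the difference was 1.06 (standard error 0.37, adjusted p = 0.0606), with every day 2 array above every day 1 array. It was called in 7 of 27 other settings and not in 20, where the adjusted p reached 0.251. Among the 7 was the setting without both doubtful day 2 libraries (1.36, adjusted p = 0.0124). Leaving out day 2 control 3, day 2 PD169316 1, day 0 1 or day 4 PD169316 2 gave the call too (adjusted p = 0.0204, 0.0456, 0.0251 and 0.0380). Day 2 control remained 1.24 below day 0 (adjusted p = 0.0133), a call lost without day 0 2 (0.0597), day 0 3 (0.0680) or day 2 control 3 (0.0595), and with only the arrays compared in the model (0.0540).

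At day 4 with PD169316, *Dlk1* was at 8.72, 7.70 and 8.86, below every day 0 array. The difference from day 0 was -1.86 (standard error 0.37, adjusted p = 0.000661). The difference from day 2 PD169316 was -0.31 (adjusted p = 0.571), and -0.065 without both doubtful libraries (adjusted p = 0.905). In order, the *Dlk1* means were 10.28 ± 0.78 at day 0, 9.61 ± 0.15 in day 1 PD169316, 9.04 ± 0.52 in day 2 control, 8.74 ± 0.43 in day 2 PD169316, 8.42 ± 0.64 in day 4 PD169316 and 7.98 ± 0.13 in day 1 control. The arrays of neighbouring groups in this order overlapped, except those of day 1 PD169316 and day 2 control.

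*Dlk1* was also among the probes that varied most within groups. Its residual SD in the model was 0.50 on the log2 scale, higher than that of 99.2% of probes. At day 0, array 1 differed by -1.35 from the mean of the other two, a gap larger than that of 99.98% of probes, where the median gap was 0.12. The standard error over the 31 to 54 beads that carry the probe on an array was between 2.20% and 4.21% of the intensity.

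Some neuron markers moved with *Dlk1* over part of the groups. The summed level of the 10 measured neuron markers was 7586 to 8378 in day 1 PD169316 and 4763 to 5180 in day 1 control, with 2 called higher and 0 lower (median log2 difference 0.36). The most abundant of them, *Gad1* (group means 11.10 in control and 11.97 in treated arrays) and *Syt1* (10.40 and 11.14), carry most of this sum, while *Map2* (6.96 and 6.56) and *Nefm* (6.82 and 6.55) had lower means in the treated group. It was 7088 to 7375 at day 0, 4642 to 4740 in day 2 control, 4422 to 5028 in day 2 PD169316 and 3043 to 3208 at day 4. In each group 8 to 10 of the 10 were detected on all 3 arrays. The summed OLP markers, by contrast, were lower in day 1 PD169316 (41994 to 43788) than in day 1 control (50161 to 52898), with 3 of 5 called lower. The sums of oligodendrocyte markers (35681 to 37560 against 49514 to 51481, 1 of 6 called lower) and astrocyte markers (18351 to 19629 against 25862 to 26526, 1 of 7 called lower) were lower in the treated arrays as well, without overlap. The part of these other transcripts in the *Dlk1* result was not tested. *Map3k12* had a log2 difference of 0.04 at day 1 (adjusted p = 0.714).

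*Notch1*, a Notch receptor, fell as the cultures differentiated, with or without PD169316. The day 0 arrays were at 9.70, 9.999 and 9.95. The day 1 control arrays were at 9.08, 8.84 and 9.02, and the day 2 control arrays at 8.56, 8.64 and 8.67. All later arrays of the series lay below all day 0 arrays. Relative to day 0, *Notch1* fell by 0.90 in day 1 control (standard error 0.10, adjusted p = 2.67e-05) and by 1.26 in day 2 control (adjusted p = 3.68e-07), which is 1.87-fold and 2.39-fold. It fell by 1.06 in day 1 PD169316 (adjusted p = 3.26e-06) and by 1.27 in day 4 PD169316 (adjusted p = 1.71e-07). These 4 calls held in all 27 other settings. They share the day 0 arrays.

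PD169316 did not separate the arrays for *Notch1*. The treated arrays were at 8.87, 8.87 and 8.74 at day 1, which overlapped the controls, with a log2 difference of -0.15 (95% interval -0.38 to 0.07, adjusted p = 0.381). At day 2 the treated arrays were at 8.68, 8.86 and 8.52, and the difference was 0.07 (95% interval -0.16 to 0.29, adjusted p = 0.914), and 0.093 without both doubtful libraries (adjusted p = 0.667). From day 1 to day 2 control *Notch1* fell by 0.36 (standard error 0.10, adjusted p = 0.0287). This smaller step was lost in 7 of 27 settings, among them without day 1 control 1 (adjusted p = 0.110), day 1 control 3 (0.0872), day 2 control 1 (0.103) or day 2 control 2 (0.0708). In order, the means were 9.88 ± 0.16 at day 0, 8.98 ± 0.12 in day 1 control, 8.83 ± 0.08 in day 1 PD169316, 8.69 ± 0.17 in day 2 PD169316, 8.62 ± 0.06 in day 2 control and 8.61 ± 0.13 at day 4. Only day 0 stood apart from its neighbour in this order.

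*Notch2*, a second Notch receptor, was at the edge of detection. It was detected on 1 array of day 2 control, 1 of day 2 PD169316 and 2 of day 4 PD169316, and on none of day 0 or day 1. Those 4 arrays were at 5.996, 5.70, 5.70 and 5.60, and the other 14 arrays lay between 4.73 and 5.46. The level was thus measurable only late and only on some arrays. With all 3 day 0 arrays below the detection limit, no fold or test is given.

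*Jag1*, a canonical Notch ligand, varied little. Its group means lay between 7.54 ± 0.16 in day 1 PD169316 and 7.96 ± 0.21 at day 4. The day 0 arrays were at 7.48, 7.57 and 7.62 and the day 4 PD169316 arrays at 8.08, 7.72 and 8.09, so that all day 4 arrays lay above all day 0 arrays. The difference was 0.40 (standard error 0.13, adjusted p = 0.0205), 1.32-fold. It was called in 23 of 27 settings and lost without day 0 1 (adjusted p = 0.0688), day 4 PD169316 1 (0.0800) or day 4 PD169316 3 (0.0793), and with the deposited values (0.17, adjusted p = 0.447). At day 1 the control arrays were at 7.95, 7.65 and 7.83 and the treated arrays at 7.69, 7.56 and 7.38, which overlapped, with a difference of -0.26 (95% interval -0.55 to 0.02, adjusted p = 0.234). At day 2 the control arrays were at 7.62, 8.03 and 7.57 and the treated arrays at 7.78, 7.58 and 7.74, with a difference of -0.04 (95% interval -0.33 to 0.24, adjusted p = 0.961), and -0.17 without both doubtful libraries (adjusted p = 0.504). In order, the means rose from day 1 PD169316 through day 0 (7.56), day 2 PD169316 (7.70), day 2 control (7.74) and day 1 control (7.81) to day 4, and all neighbours in this order overlapped. Apart from day 4 against day 0, *Jag1* was called in none of the 9 comparisons. Its differences of 0.25 and 0.18 in day 1 and day 2 control from day 0 turned to -0.12 and -0.16 with the deposited values, where the median of all probes was at -0.25 and -0.28.

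*Hes1* and *Hes5* encode basic helix-loop-helix repressors that are direct targets of activated Notch. Their promoters are shown because of the 6 genes only these held the RBPJ motif GTGGGAA in the 300-base window from 250 bases before to 50 after the RefSeq start site. On either strand, 6.29% of all 33469 promoter windows held this motif. The windows are from RefSeq on build GRCr8 and run 5′ to 3′ along the gene, with the motif in capitals, read as TTCCCAC on the other strand. The *Hes1* window lies on the minus strand at chr11:84212996-84213295 and holds 1 match. The *Hes5* window lies on the plus strand at chr5:170804327-170804626 and holds 2 matches, 1 on each strand. A match is a run of letters and no measure of binding.
Hes1: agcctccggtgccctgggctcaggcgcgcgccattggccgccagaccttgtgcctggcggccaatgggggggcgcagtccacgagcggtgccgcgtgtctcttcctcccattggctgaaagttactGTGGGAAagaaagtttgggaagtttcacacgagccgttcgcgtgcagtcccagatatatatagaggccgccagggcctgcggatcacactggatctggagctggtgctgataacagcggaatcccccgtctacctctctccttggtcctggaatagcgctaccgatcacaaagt
Hes5: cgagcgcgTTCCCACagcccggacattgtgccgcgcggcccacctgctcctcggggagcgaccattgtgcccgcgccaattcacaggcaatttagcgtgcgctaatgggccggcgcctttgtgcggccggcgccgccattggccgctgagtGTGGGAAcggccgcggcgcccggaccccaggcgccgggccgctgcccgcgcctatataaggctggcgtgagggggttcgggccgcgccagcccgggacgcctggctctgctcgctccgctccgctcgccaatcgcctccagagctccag

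Both target genes had their highest group mean at day 0, close to background. *Hes1* was at 5.80, 5.50 and 5.87 on the day 0 arrays, where it was detected on all 3. It was detected on no array of day 1 control (5.25, 5.26 and 5.24), day 2 control (4.77, 5.05 and 5.53) or day 4 PD169316 (5.11, 5.10 and 5.19), on 1 array of day 1 PD169316 (5.68, the others at 5.27 and 5.14) and on 2 of day 2 PD169316 (5.62 and 5.58, the other at 5.33). *Hes1* entered the test through day 0, the group in which it was highest, so that tests against day 0 are not independent of that choice. Its fitted differences from day 0 were -0.47 in day 1 control (adjusted p = 0.0491), -0.61 in day 2 control (adjusted p = 0.00941) and -0.59 at day 4 (adjusted p = 0.00871). Against the lowest detected signal of the arrays on which *Hes1* was not detected, the day 0 mean was 1.06-fold, 1.11-fold and 1.14-fold higher. These bounds compare group means, carry no sampling error and are no guaranteed minimum. The day 1 call was lost in 16 of 27 settings, among them without each single day 1 control or day 4 library, day 1 PD169316 1, day 2 control 2, day 2 PD169316 2 or 3, and day 0 1 or 3, with adjusted p up to 0.155. Day 1 PD169316 differed from day 0 by -0.36 (adjusted p = 0.117), and by -0.52 without day 1 PD169316 2 (adjusted p = 0.0391). The day 2 call was lost without day 2 control 1 (0.0594) and with only the arrays compared in the model (0.0520), and the day 4 call with the deposited values (0.0648).

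PD169316 gave no called difference in *Hes1*. At day 1 the difference was 0.11 (95% interval -0.25 to 0.47, adjusted p = 0.712), and without day 1 PD169316 2, the only array of the pair of groups with a detected signal, it was -0.049. At day 2 it was 0.40 (95% interval 0.04 to 0.76, adjusted p = 0.888), and without both doubtful libraries 0.69 (adjusted p = 0.00666). Since *Hes1* was detected on no control array of either day, these differences are set against background, and against the lowest detected signal of those arrays no higher level can be stated. *Hes5* was detected on no array, with a lowest detection p of 0.0210 at day 0. Its day 0 arrays were at 5.46, 5.33 and 5.17, and all 15 later arrays lay between 4.55 and 5.05. The day 0 arrays thus lay above all others, although none of them reached the detection limit. No fold or test is given for it.

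Counted over the 4 tested genes, day 1 control differed from day 0 in 3, all lower and *Hes1* among them, beside 27.1% of all probes called (13.8% higher and 13.3% lower). The arrays of these groups did not overlap for all 4 genes, as for 48.5% of all probes. Day 2 control differed from day 0 in the same 3 genes, all lower (42.2% of probes called, 20.6% higher and 21.6% lower), and did not overlap for *Dlk1* and *Notch1* (52.5% of probes). *Notch1* was the only gene called between day 1 and day 2 control (17.4% of probes, 8.42% higher and 8.97% lower), where *Dlk1* and *Notch1* did not overlap (35% of probes). It was also the only one called between day 0 and day 1 PD169316 (31.2%, 16.2% higher and 14.9% lower) and the only one that did not overlap there (54.6%). All 4 genes were called between day 0 and day 4 PD169316, 3 lower and *Jag1* higher (50.7%, 23.2% higher and 27.5% lower), and none overlapped (62.1%). Between day 2 and day 4 PD169316 limma called 0 of the 4 (23.2%, 10.2% higher and 13.1% lower), while *Hes1* had an unadjusted p under 0.05 and did not overlap (33.6%). It was called without both doubtful day 2 libraries (-0.47, adjusted p = 0.0188), although its day 4 arrays were all below detection. Counts against day 0 that hold *Hes1* are descriptions only.

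The wider pathway was described with 7 lists by role, of ligands, receptors, receptor processing, glycosylation, turnover regulators, the nuclear complex with its co-repressors, and HES and HEY targets. They hold 51 genes with a probe, the 6 among them, of which 33 were tested. After 1 day of PD169316, 2 of these 33 were called higher, 1 was called lower and 30 were not called, beside 11.1% of all probes called, with a median log2 difference of -0.02 beside -0.0045 over all probes. The 2 called besides *Dlk1* were *Dll3*, a divergent Delta-like ligand, and *Adam17*, a metalloprotease that sheds membrane proteins, DLK1 and Notch among its known substrates.

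*Dll3* was lower with PD169316 at day 1. The control arrays were at 7.03, 6.68 and 6.81, and the treated arrays at 5.88, 5.94 and 5.54, the last of them not detected. The groups did not overlap, and *Dll3* fell by 1.05 (standard error 0.14, adjusted p = 0.000159), which is 2.07-fold. *Adam17* was higher, with control arrays at 10.33, 10.36 and 10.53 and treated arrays at 11.23, 11.21 and 11.15. It rose by 0.79 (standard error 0.09, adjusted p = 6.45e-05), which is 1.73-fold. Both calls held in all 27 other settings. Manic fringe (*Mfng*), which adds sugars to Notch receptors, was at 8.51 ± 0.13 in control and 7.27 ± 0.11 in treated arrays at day 1 without overlap, a difference of -1.24 that was not called (standard error 0.42, adjusted p = 0.0706). At day 2 the control arrays were at 8.60, 8.58 and 7.01 and the treated arrays at 8.64, 6.94 and 6.98. Again control 3 lay with PD169316 2 and 3, and PD169316 1 with control 1 and 2.

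**Figure D2:**
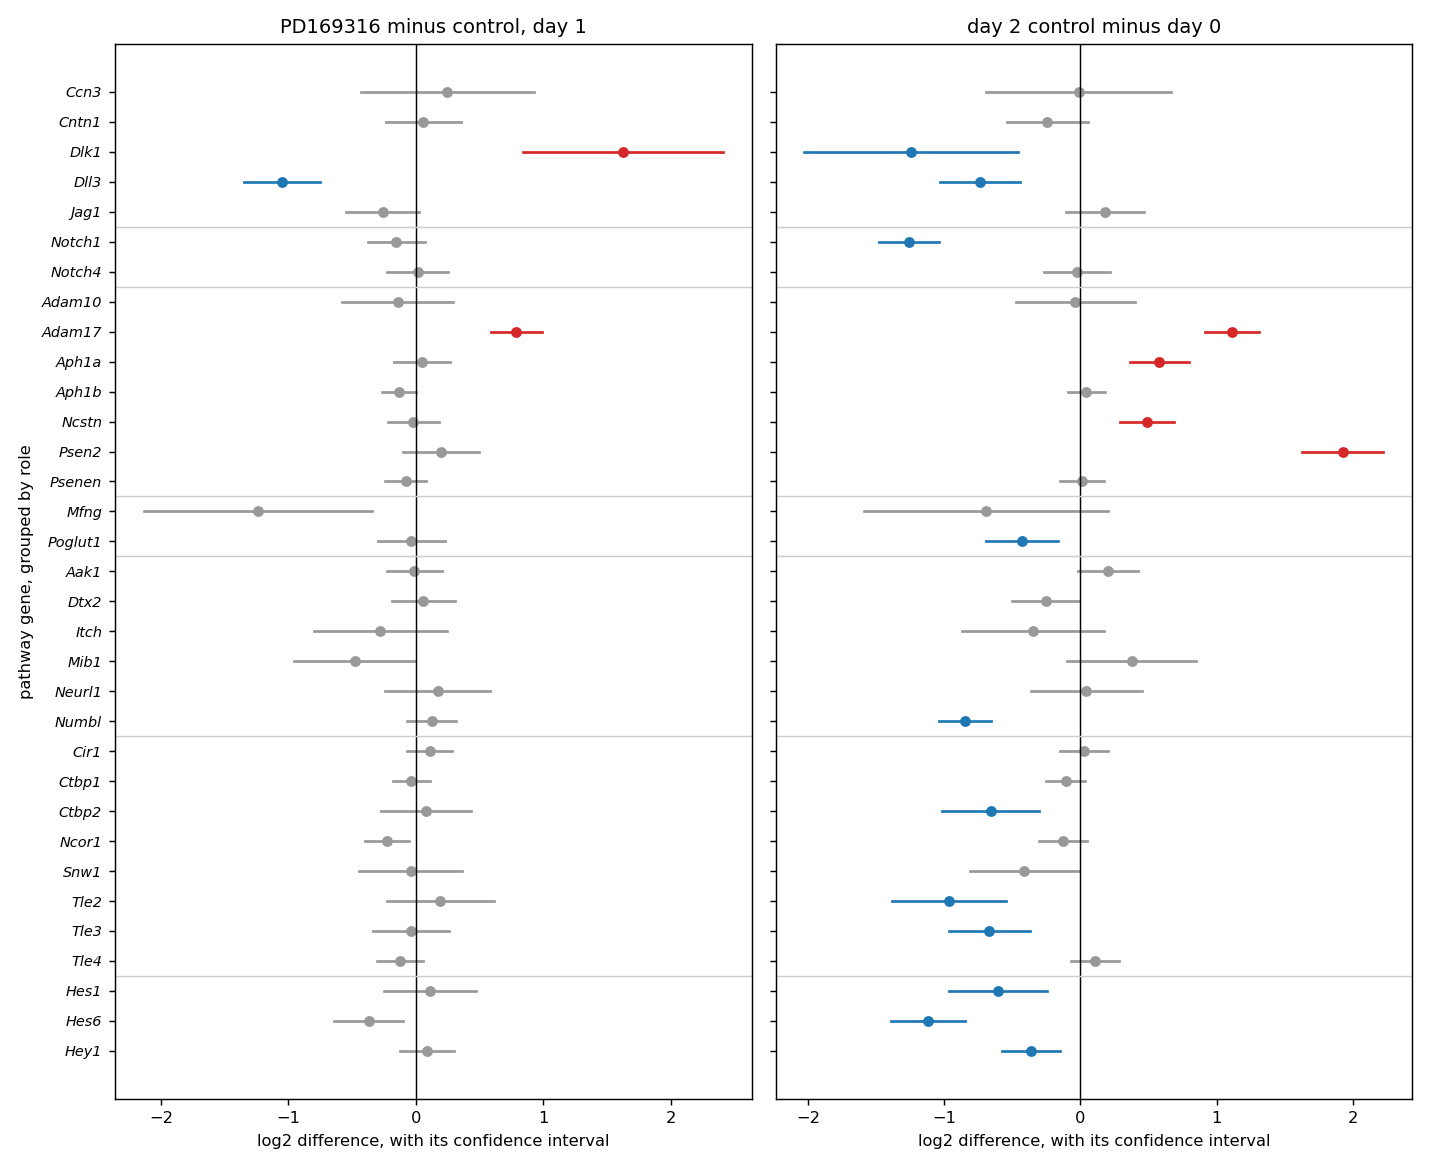
Log2 differences with 95% intervals for the 33 tested pathway genes, grouped by role (lines separate ligands, receptors, receptor processing, glycosylation, turnover, nuclear complex and targets), for PD169316 minus control at day 1 (left) and day 2 control minus day 0 (right). Red is called higher, blue called lower and grey not called at an adjusted p of 0.05. At day 1 the 3 called genes are *Dlk1*, *Adam17* and *Dll3*, and on the right 4 processing genes are higher and 11 genes of other roles lower. The 11 include *Hes1*, which was tested only because it was detected at day 0.

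In day 2 control, 4 of 33 pathway genes were called higher than at day 0 and 11 lower, beside 20.6% of all probes called higher and 21.6% lower, with a median of -0.13 beside -0.0006 over all probes. The 11 include *Hes1*, which passed the detection filter only through day 0, so this count is a description only. All 4 that rose belong to receptor processing. None of its 7 tested genes was called lower, and the other 3 had close means at day 0 and in day 2 control, *Adam10* at 7.32 and 7.28, *Aph1b* at 11.12 and 11.17 and *Psenen* at 13.66 and 13.68. The second *Adam10* probe, of lower signal, was at 6.53 and 6.11. *Psen2*, a catalytic subunit of γ-secretase, went from 7.97 ± 0.16 to 9.90 ± 0.30, a rise of 1.93 (standard error 0.14, adjusted p = 9.92e-08) or 3.80-fold. *Adam17* rose by 1.11 (adjusted p = 3.88e-07) from 9.59 ± 0.05 to 10.70 ± 0.21. *Ncstn* and *Aph1a*, 2 further γ-secretase subunits, were the others, at 0.49 and 0.58.

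Among the genes that fell, *Hes6*, a HES family gene that opposes *Hes1* in mouse neural progenitors, went from 12.01 ± 0.09 at day 0 to 10.89 ± 0.26 in day 2 control, down by 1.12 (adjusted p = 7.61e-06). *Hey1*, a HEY family target, fell by 0.36. Besides these and *Hes1*, the other 6 of 9 HES and HEY genes with a probe did not pass the detection filter. *Numbl*, a relative of the Notch inhibitor Numb, fell by 0.84, the co-repressor gene *Tle2* by 0.97 and *Dll3* by 0.74. Without both doubtful day 2 libraries the changes were 2.10 for *Psen2*, 1.24 for *Adam17*, -1.27 for *Hes6*, -0.92 for *Numbl*, -1.19 for *Tle2* and -0.61 for *Dll3*, and all 6 calls held. Of the 5 ligand genes 2 fell (*Dlk1* and *Dll3*) and none rose. In day 1 control, 3 of 33 were called higher than at day 0 (all of receptor processing, *Psen2* by 1.22 and *Adam17* by 0.82) and 10 lower, beside 13.8% and 13.3% of all probes. The 10 again include *Hes1*. *Cntn1*, a contactin that can bind Notch, fell by 0.64.

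**Figure D3:**
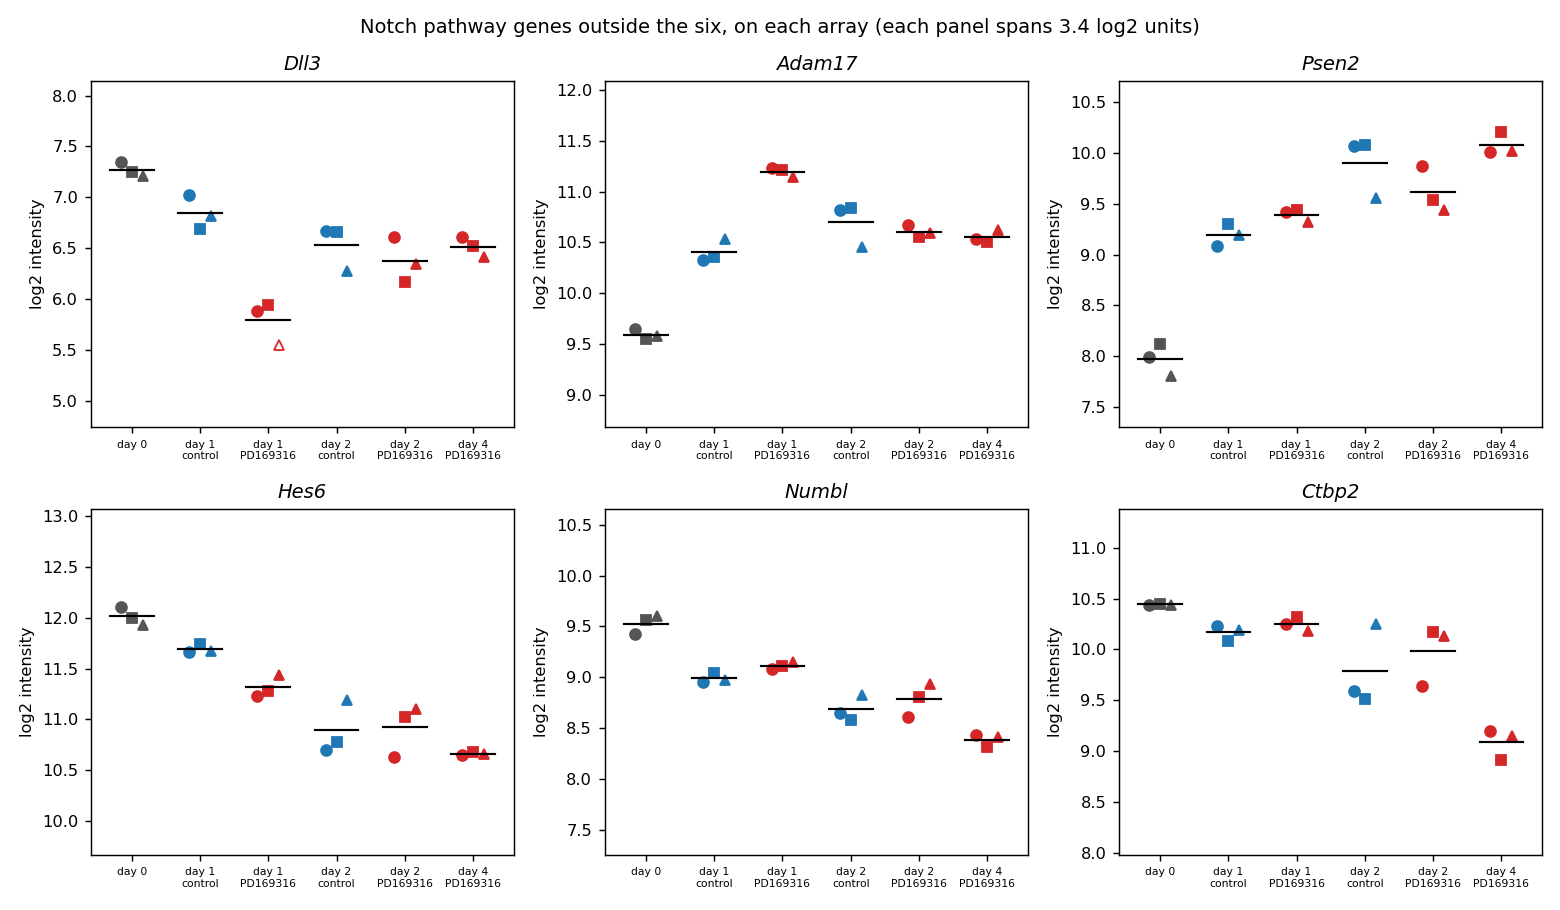
Log2 intensity on each of the 18 arrays for 6 pathway genes besides those of the opening (grey, day 0, blue, control, red, PD169316, with circles, squares and triangles for replicates 1, 2 and 3, bars for means and an open symbol where not detected). *Psen2* rises and *Hes6* and *Numbl* fall with time in culture, *Adam17* and *Dll3* separate treated from control arrays at day 1, and *Ctbp2* is lowest at day 4.

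With PD169316 for 4 days, 7 of 33 pathway genes were called higher than at day 0 and 13 lower, beside 23.2% and 27.5% of all probes, with a median of -0.05 beside -0.03 over all probes. The 13 include *Hes1*, tested only through its detection at day 0, so this count too is a description only. *Psen2* was at 10.08 ± 0.11, 2.10 above day 0 (adjusted p = 2.04e-08), and 5 of 7 processing genes were higher with none lower. Of 8 tested genes of the nuclear complex and co-repressors 6 fell and none rose. *Tle2* fell by 1.44, *Ctbp2* by 1.36 and *Tle3* by 1.12, all co-repressor genes. *Hes6* fell by 1.35 and *Numbl* by 1.14. From day 2 to day 4 PD169316, *Ctbp2* fell by 0.89 (adjusted p = 0.00234), while *Mfng* rose by 1.30 (adjusted p = 0.0365) and *Ccn3*, a secreted protein that can bind Notch, by 0.92 (adjusted p = 0.0489). Without both doubtful libraries these changes were -1.07, 1.86 and 0.67, all called. The *Mfng* call was lost in 7 of 27 settings, without day 2 PD169316 2 (adjusted p = 0.158) or 3 (0.152) and without any day 4 library (0.0926, 0.0709 and 0.0776) among them. The *Ccn3* call was lost in 16, with adjusted p up to 0.176 without day 4 PD169316 2, and 0.133 without day 2 PD169316 1. The *Ctbp2* call was lost with the deposited values (adjusted p = 0.0718).

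Compared with all named probes tested, the values of *Dlk1* over the 18 arrays were most like those of *Plcd1*, a phospholipase C gene (Pearson r = 0.937), *Rpl10*, a ribosomal protein gene with many near-identical copies whose signal may be shared (0.884), *Gclm*, the modifier subunit of glutamate-cysteine ligase (0.883), and *Bok*, a BCL2 family gene (0.874). All 4 were highest at day 0 and higher in day 1 PD169316 than in day 1 control, as *Dlk1* was. Their range was narrower, with *Plcd1* from 10.33 ± 0.05 in day 1 control to 10.94 ± 0.21 at day 0. The nearest to *Notch1* were *Olfm1*, a secreted olfactomedin gene (0.971), *Chst9* (0.965), *Plce1* (0.962) and *Snx22* (0.961), and *Olfm1* went from 12.39 ± 0.07 at day 0 to 10.73 ± 0.19 in day 2 control. *Chst9* was at 6.05 ± 0.11 at day 0, with later group means of 4.57 to 4.79. *Snx22* was at 5.88 ± 0.11 at day 0, with later means of 4.59 to 4.87. These later means are close to those of the undetected *Hes5*, so both correlations mostly set day 0 against a level near background. *Jag1* was most like *Pigw*, a gene of GPI anchor synthesis (0.924), and *Hes1*, detected on only 6 of the 18 arrays, most like *Rpap3* (0.890). *Dlk1* and *Notch1* correlated with each other at 0.627 (Spearman 0.426) and *Dlk1* and *Jag1* at -0.307 (Spearman -0.418). These correlations describe 18 arrays in 6 groups, whose group means the genes share, and carry no test.

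**Figure D4:**
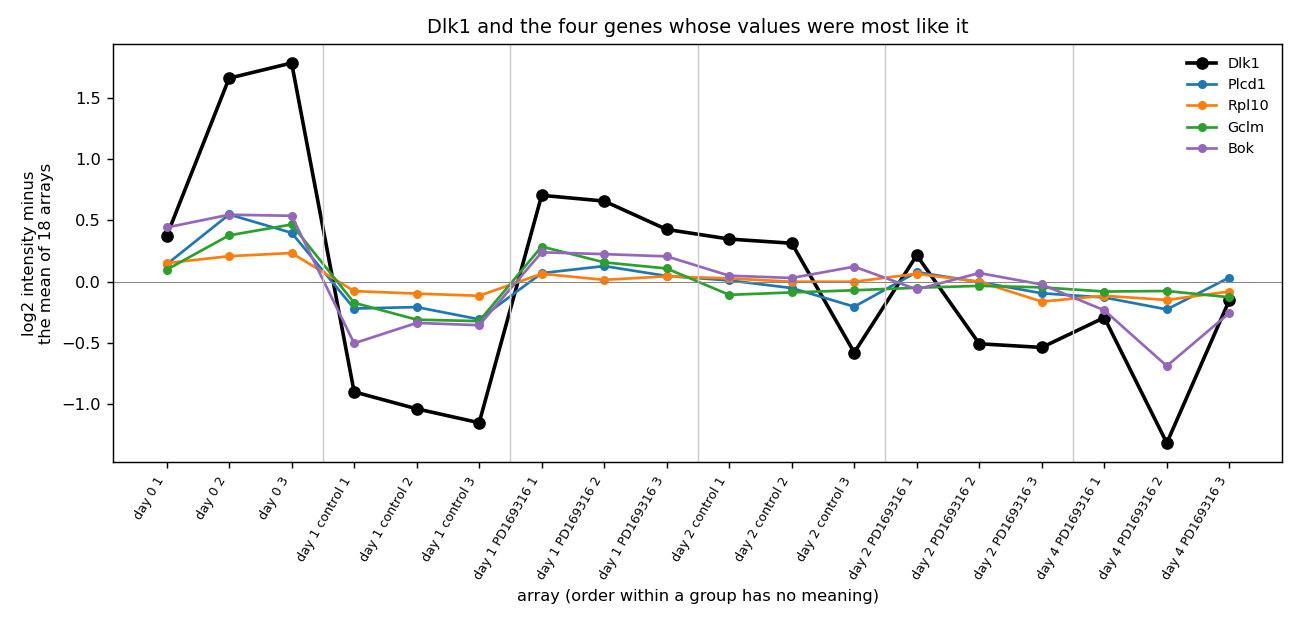
Log2 intensity minus the mean of the 18 arrays for *Dlk1* (black) and the 4 named genes with the highest Pearson correlation with it. The arrays are set out by group, and their order within a group has no meaning. *Dlk1* spans the widest range, and its values on day 0 array 1 and day 4 array 2 lie below those on the other arrays of their groups.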

How the data were processed

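Illumina RatRef-12 arrays of 18 samples were analysed, 3 in each of 6 groups as the labels give them. The deposited file of the authors holds intensities averaged over beads, neither background-subtracted nor normalized between arrays, with the detection p-value of every probe against the negative control beads, and bead numbers and bead standard errors. The program that read the bead signals was not given in the sources used here. The study's methods name FlexArray for an empirical Bayes test of 3 samples a group, and no normalization. The authors' value table equals these intensities for all 405414 values and was not used further. Genes were named from the array annotation, in which 13793 of 22523 probes have 1 symbol and 8730 none.

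The function neqc of limma 3.58.1 in R 4.3.3 corrected the background, normalized by quantiles and took log2, adding an offset of 16. A probe was kept where some group had it detected on each of its 3 arrays at a detection p under 0.01, which left 10574 probes (7720 with a symbol). Group means were fitted over all 18 arrays (12 residual and 3.16 prior degrees of freedom), and 9 comparisons were tested with two-sided moderated statistics and Benjamini-Hochberg adjustment over these probes. Each adjusted p comes from limma, and intervals hold 95% confidence. For a gene undetected throughout a group, the bound on its fold took, array by array, whichever was higher of its own signal and the lowest detected one. A gene with several probes is represented by its kept probe of highest mean. Python 3.11.15 with pandas 2.3.3 and matplotlib 3.10.9 made the figures.

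Besides the 6 genes, the text names pathway genes called in a comparison, up to 6 by size of difference, and for each tested gene the 4 symbols of highest correlation. *Mfng* at day 1, *Ncstn*, *Aph1a*, *Adam10*, *Aph1b*, *Psenen* and *Hey1* at day 2, and single neuron markers are named beyond this rule, after their values were seen. The genes, lists, comparisons and alternatives were chosen with earlier results of these data known. The number of arrays limits the precision. Alternatives tried were log2 of the deposited intensities, omission of the background correction, scaling by the 75th percentile, omission of the detection filter, a model with only the arrays compared, a block for the replicate number, weights for arrays, an offset of 50, leaving out each library, and leaving out day 2 control 3 and day 2 PD169316 1 together. Leaving out libraries of groups not compared was added after seeing the data. Such settings leave the difference as it was and move only its error, so they test a call less. Simulated data with known changes were used to test the fit. Pathway genes of the lists without a named probe were not analysed here. Promoter windows are from RefSeq, build GRCr8, with all 6 genes matched by symbol.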

Additional observations from a re-analysis of the deposited data

Results flagged for a closer look

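For 2 pathway genes besides the 6 described, the effect of PD169316 at day 2 differed from that at day 1 by limma's test of the difference itself. For *Dll3* the effect at day 2 minus that at day 1 was 0.89 (standard error 0.20, adjusted p = 0.0175): the difference between treated and control arrays was -1.05 at day 1, and at day 2 the control arrays were at 6.67, 6.66 and 6.27 and the treated arrays at 6.60, 6.17 and 6.35. Without day 2 control 3 and day 2 PD169316 1, whose values lay with the other label, it was 0.65 (adjusted p = 0.0228). The call was lost without day 1 control 1 (0.80, adjusted p = 0.0522), with only the arrays compared (adjusted p = 0.0604) and with the deposited values (0.40, adjusted p = 0.583). For *Adam17* it was -0.89 (standard error 0.13, adjusted p = 0.00134): the difference was 0.79 at day 1, and at day 2 the control arrays were at 10.82, 10.84 and 10.46 and the treated arrays at 10.67, 10.55 and 10.59. Without both libraries it was -1.04 (adjusted p = 3.31e-05), and with the deposited values the call was lost (-0.75, adjusted p = 0.321).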

How the results depend on the processing

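In 27 other settings for each of the 4 tested genes in 9 comparisons, the calls of *Dlk1* at day 1 and of *Dlk1* and *Notch1* in day 1 control and day 4 against day 0 held throughout. For 40 results on other pathway genes, 981 of 1080 values kept direction and call, 99 lost the call and 0 reversed. Calls were lost most often for *Ccn3* in day 4 against day 2 (16 settings), *Tle2* in day 1 control against day 0 (15) and *Adam17* in day 2 against day 1 control (13). These 40 were picked because they were called, by size of difference. Settings without a library of a group not compared cannot reverse a difference, so this tally is a weak check. The cause of the changes below was not tested.

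With the deposited values on the log2 scale, called probes numbered 236 (PD169316 at day 1), 18 (change between days), 324 (day 2 against day 1 control), 1122 (day 4 against day 2 PD169316) and 3518 (day 4 against day 0). Of the 6 genes, 0 were called in day 2 against day 1 control, 3 in day 1 PD169316 against day 0 and 2 in day 4 against day 0. *Jag1* turned to 0.012 for PD169316 at day 2, -0.12 and -0.16 in day 1 and day 2 control against day 0, and *Notch1* to 0.056 in day 4 against day 2 PD169316, where the median of all probes was at 0.12. The share of calls that were higher moved from 50.8% to 4.88% (day 1 control against day 0), 48.8% to 9.84% (day 2 control against day 0), 48.4% to 65.4% (day 2 against day 1 control), 52.0% to 5.84% (day 1 PD169316 against day 0), 43.7% to 95.0% (day 4 against day 2), 45.7% to 33.1% (day 4 against day 0) and 39.6% to 72.2% (change between days).

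The change between days was called for 1 gene, *Dlk1*, without background correction, with the 75th percentile, the offset of 50 and only the arrays compared. The 75th percentile called 1 gene in day 4 against day 2 and put *Jag1* at 0.0020 in day 1 PD169316 against day 0. Without the detection filter 5 genes were called in day 2 control against day 0, 0 in day 2 against day 1 control and 2 in day 1 PD169316 against day 0. The added calls were *Notch2* and *Hes5* in the first of these comparisons and *Hes5* in the last. *Notch2* and *Hes5* were also called in day 4 against day 0, and *Hes5* in day 1 control against day 0. *Notch2* was detected on 4 arrays and *Hes5* on 0, so these calls are set against background. With only the arrays compared, 2265 probes were called at day 1, 1132 in day 2 against day 1 control and 283 in day 4 against day 2, and 1 gene in day 2 control against day 0.

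Array weights called 3089 probes for PD169316 at day 1, 3946 at day 2, 2612 for the change, 4473 in day 1 control against day 0, 3696 in day 2 against day 1 control, 5013 in day 1 PD169316 against day 0 and 6008 in day 4 against day 2. They called 1 gene for the change and 2 each for PD169316 at day 2, day 2 against day 1 control, day 1 PD169316 against day 0 and day 4 against day 2. *Jag1* turned to 0.024 in day 2 against day 1 control and 0.0035 in day 1 PD169316 against day 0, and *Dlk1* to 0.15 in day 4 against day 2. Without day 2 control 3 and day 2 PD169316 1 together, 2462 probes were called at day 1, 2500 at day 2, 1632 for the change, 3339 in day 2 against day 1 control and 4449 in day 4 against day 2. Then 1 gene was called for PD169316 at day 2 (*Hes1*), 1 for the change, 2 in day 2 against day 1 control, 2 in day 1 PD169316 against day 0 and 1 in day 4 against day 2, and *Jag1* was at 0.021 in day 2 against day 1 control.

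Leaving out 1 library, called probes ranged over 725 to 1742 (1171 with all) at day 1, 0 to 8 (0) at day 2, 266 to 599 (407) for the change, 1878 to 3483 (2861) in day 1 control against day 0, 1127 to 2413 (1839) in day 2 against day 1 control and 1164 to 3980 (2455) in day 4 against day 2. Genes called ranged over 0 to 1 for the change, 0 to 2 in day 2 against day 1 control and 1 to 2 in day 1 PD169316 against day 0. Log2 differences that crossed 0 were those of *Hes1* at day 1 (-0.049 to 0.22) and in day 2 against day 1 control (-0.34 to 0.040), *Jag1* at day 2 (-0.13 to 0.11), in day 2 against day 1 control (-0.21 to 0.021) and in day 1 PD169316 against day 0 (-0.091 to 0.067), *Notch1* at day 2 (-0.020 to 0.15) and in day 4 against day 2 (-0.16 to 0.0086), and *Dlk1* in day 4 against day 2 (-0.53 to 0.054).

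Of 45 correlations of deviations between samples of equal replicate number, 8 were over 0.1 (-0.53 to 0.56). The lowest and the highest were of day 2 control with day 2 PD169316, the groups of the doubtful libraries. Whether equal numbers mark paired samples cannot be told from these values. With the replicate block, 1233 probes were called at day 1, 0 at day 2, 424 for the change, 2882, 4478 and 5411 in day 1 control, day 2 control and day 4 against day 0, 1863 in day 2 against day 1 control, 3395 in day 1 PD169316 against day 0 and 2554 in day 4 against day 2. The block changed 1 call of the 4 genes, *Hes1* in day 1 control against day 0 (adjusted p = 0.0510). Slide or scan as a block was not run, since the file headers used here give neither. *Hes1*, *Hes5* and *Notch2* lay near background, which limits what their values can show.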
